A study of Mus musculus with 6 samples.

Results

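The aged pair of sections compared here holds 1 coronal brain section of an E4 mouse and 1 of an E3 mouse, both 24 months of age, measured by spatial transcriptomics (ST, the Visium assay, in which barcoded spots on a slide capture the polyadenylated RNA of the tissue above them). Both mice were female and homozygous for a targeted replacement in which human APOE4 or human APOE3 stands in place of the coding part of mouse Apoe under the mouse promoter, and neither carried a 5xFAD transgene. The other 4 sections of the series, E4 and E3 at 3 months and E4 and E3 crossed to 5xFAD at 12 months, are used only to show how far other pairs of the same lines lie apart. Each group is 1 section of 1 brain, so the spots of a section share a mouse, a slide and a library and are not replicates of a genotype, and no p-value is given anywhere.

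Neurons of the thalamus and cortex fill their synaptic vesicles with glutamate through different transporters. Slc17a6 (VGLUT2) is the transporter of thalamic and hypothalamic glutamate neurons, and Slc17a7 (VGLUT1) that of cortical and hippocampal ones. Relay nuclei of the thalamus pass sensory and motor signals on to the cortex, and their neurons carry Prkcd, a protein kinase C isoform, and in part Tnnt1, a troponin T. APOE is the main lipid carrier protein of the brain and is made mostly by astrocytes and, under stress, by microglia.

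A tissue spot entered if it lay in the tissue mask and held at least 1000 UMIs (unique molecular identifiers, 1 for each captured molecule). Spots with more UMIs of Slc17a6 than of Slc17a7 were called Slc17a6-dominant, and spots with at least 5 UMIs of Prkcd plus Tnnt1 per 10000 were called relay thalamus. The Slc17a6-dominant set held 451 of 1445 spots in the E4 section (31.2%, exact binomial 95% interval 28.8 to 33.7) and 333 of 2140 spots in the E3 section (15.6%, 14.0 to 17.2). The relay set held 448 spots in the E4 section (31.0%, 28.6 to 33.5) and 464 in the E3 section (21.7%, 19.95 to 23.5). Together the sets therefore held 784 and 912 of the 14524 mask spots of the series, and 234 spots in the E4 section and 183 in the E3 section were in both. The shares rest on how much of each section was left in the mask: 537 mask spots of the E4 section (24.1%) and 402 of the E3 section (14.5%) had no barcode in the count matrix. As the map of the spot sets shows, these lay at the edges, and 3 Slc17a6-dominant spots in the E4 section and 7 in the E3 section adjoined one.

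**Figure D1:**
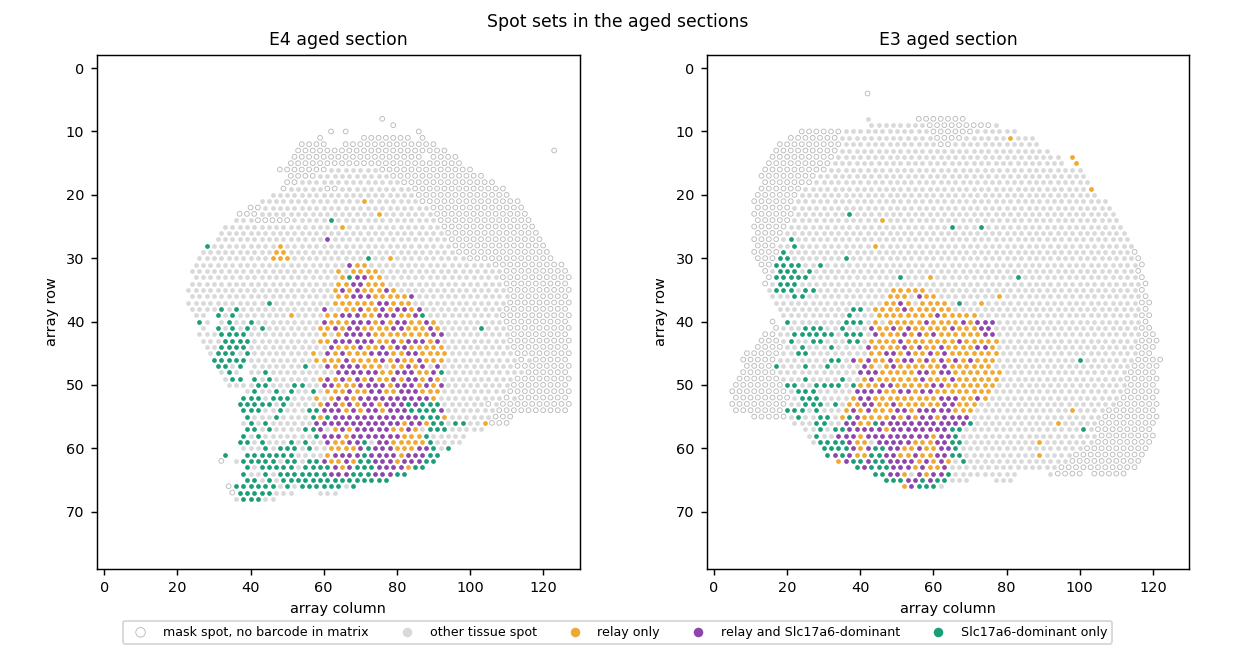
Map of the spot sets in the E4 aged section (left) and the E3 aged section (right), by array column and row. Orange spots are relay thalamus only, purple spots are in both sets (234 in E4, 183 in E3), green spots are Slc17a6-dominant only (217 in E4, 150 in E3), filled grey spots are other tissue and open circles are mask spots with no barcode in the matrix.

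Both sets rest on cut points that some spots lie close to. In the relay set the lowest spots inside had 5.06 UMIs of Prkcd plus Tnnt1 per 10000 in the E4 section and 5.05 in the E3 section, and the highest spots outside had 4.97 and 4.96. In the Slc17a6-dominant set 132 spots of the E4 section and 91 of the E3 section exceeded Slc17a7 by 1 UMI only. A further 236 spots in the E4 section and 217 in the E3 section had equal numbers and stayed outside. Of the relay spots, 136 in the E4 section and 235 in the E3 section had more Slc17a7 than Slc17a6.

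The depth behind the relay set was 4752368 UMIs in the E4 section and 5648350 in the E3 section, with a median of 9669 and 12223 per spot. The Slc17a6-dominant set held 6607495 UMIs in the E4 section and 4772686 in the E3 section, with a median of 14000 and 13849 per spot. The median share of mitochondrially encoded UMIs in relay spots was 14.7% in the E4 section and 13.5% in the E3 section. The Visium slides use 1 list of barcodes, and 166 barcodes of the relay set and 121 of the Slc17a6-dominant set occurred in both sections. UMIs were summed over the spots of a set and are given as CPM (UMIs of a gene per 1000000 UMIs of the set) with an exact 95% Poisson interval. Ratios are log2 of E4 CPM over E3 CPM with an exact binomial 95% interval, and every interval covers counting error only, not the difference between 2 mice. In a spot, fewer cells of a type and less RNA per cell cannot be told apart.

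The regional markers of the relay set were checked first. Of the thalamic relay genes 12 had no part in choosing the spots, and all 12 had at least 100 UMIs in the relay spots of both sections together. None was past 1.5-fold, and their median log2 ratio was -0.02 beside -0.01 over all 9588 genes measured there. Tcf7l2, the transcription factor of thalamic and habenular neurons, had 584 CPM in E4 and 500 CPM in E3 (log2 ratio 0.22, 0.15 to 0.30). Adarb1, an RNA editing enzyme, had 583 CPM in E4 and 736 CPM in E3 (-0.34, -0.41 to -0.27). Rgs16, a regulator of G protein signalling, had 144 CPM in E4 and 206 CPM in E3 (-0.52, -0.66 to -0.38). Of the 12 markers 3 had intervals above 0 and 3 below 0. Human APOE, the targeted gene, had 955 CPM in E4 (928 to 984) and 855 CPM in E3 (831 to 879) in relay spots, a log2 ratio of 0.16 (0.10 to 0.22). The mouse Apoe gene, whose untargeted parts can still be counted, had 70.5 CPM in E4 and 72.2 CPM in E3, and human APP had 0 UMIs in E4 and 3 in E3.

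The relay spots of the aged pair differed in few genes. A gene is counted as past the fold where its CPM differed by 1.5-fold or more and it had at least 100 UMIs in both sections together. In relay spots 101 of 9588 genes were higher in E4 (1.05%) and 112 were lower (1.17%). The pairs at other ages lay farther apart in the same kind of spots, with 487 of 9863 genes past the fold in either direction in the young pair (4.94%) and 274 of 9192 in the 5xFAD pair (2.98%). Among the genes farthest from no difference, Serpina3n, Rbm3 and the choroid plexus genes Ttr and Clic6 were higher in E4 relay spots. The peptide genes Nts, Tac2, Penk and Pdyn were also among them, several with most E4 UMIs in a few spots. Fos, Wdfy1, Rell1 and Gm47283 were lower, as the plot of 10 genes on each side shows.

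**Figure D2:**
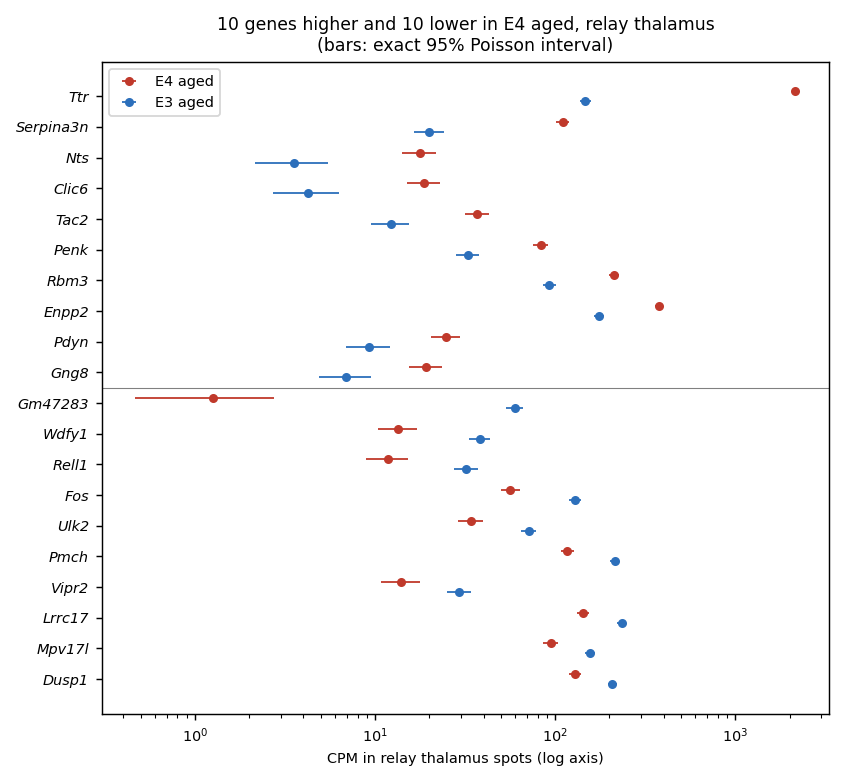
Levels in relay thalamus spots of the 10 genes higher and the 10 genes lower in the E4 aged section whose interval lies farthest from no difference, as CPM on a log axis. Red points are E4 and blue points E3, bars are exact 95% Poisson intervals, and the bars of the 2 sections overlap for none of the 20 genes.

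Serpina3n, a secreted inhibitor of serine proteases and a marker of reactive astrocytes, lies at chr12:104406729-104414329 (GRCm38). It had 523 UMIs in E4 relay spots and 113 in E3 relay spots, or 110 CPM (101 to 120) and 20.01 CPM (16.5 to 24.1). The log2 ratio was 2.46 (2.16 to 2.77), and a UMI was seen in 282 of 448 spots in E4 and in 92 of 464 spots in E3. The transcript was spread widely, since the 5 richest spots held 7.07% of its UMIs in E4 and 11.5% in E3. It was also higher in Slc17a6-dominant spots, at 143 CPM in E4 and 33.9 CPM in E3 (2.07, 1.83 to 2.32). In the Slc17a6-dominant spots outside the relay set it had 170 CPM in E4 and 49.3 CPM in E3 (1.79, 1.5 to 2.09). Serpina3n thus stood higher in E4 in every kind of spot examined.

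The other reactive astrocyte genes were not higher as a group. Of 9 members measured in relay spots 2 were past the fold, Serpina3n and Fbln5, and the median was 0.04. Over all genes in relay spots 1.05% were higher past the fold and the median was -0.01. Fbln5, an elastic fibre protein, had 28.0 CPM in E4 and 18.6 CPM in E3 (0.59, 0.21 to 0.97). Gfap, the intermediate filament of astrocytes, had 53.4 CPM in E4 and 55.4 CPM in E3 (-0.05, -0.30 to 0.19). C4b, the complement component that often accompanies Serpina3n, had 27.8 CPM in E4 and 26.0 CPM in E3 (0.09, -0.26 to 0.44). The 15 general astrocyte genes had none past the fold and a median of -0.06.

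Rbm3 and Cirbp encode RNA-binding proteins that are induced by mild cold. Rbm3 (chrX:8138975-8145880) had 211 CPM in E4 relay spots (199 to 225) and 92.9 CPM in E3 relay spots (85.2 to 101), a log2 ratio of 1.19 (1.03 to 1.34). Cirbp had 133 CPM in E4 and 80.2 CPM in E3 (0.73, 0.55 to 0.90). Both were again higher in E4 in Slc17a6-dominant spots, Rbm3 by 1.26 and Cirbp by 0.68 on the log2 scale.

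The immediate early genes, which neurons switch on within minutes of activity through factors such as CREB, were lower in E4 relay spots. None of 22 measured members was higher and 5 were lower past the fold, 1 of 22 lay above 0, and the median was -0.28. Over all genes in these spots 1.17% were lower past the fold, 47.1% lay above 0 and the median was -0.01. Fos, a subunit of the AP-1 factor, lies at chr12:85473890-85477273 and had 56.4 CPM in E4 (49.8 to 63.6) and 129 CPM in E3 (120 to 139). Its log2 ratio was -1.19 (-1.40 to -0.99), and a UMI was seen in 155 of 448 spots in E4 and in 328 of 464 spots in E3. Fos was the member farthest from no difference in these spots. Dusp1, a phosphatase that ends MAP kinase signalling, had 129 CPM in E4 and 208 CPM in E3 (-0.69, -0.84 to -0.55). Fosb had 18.5 CPM in E4 and 33.8 CPM in E3 (-0.87, -1.25 to -0.50). The orphan nuclear receptor Nr4a3 had 6.94 CPM in E4 and 12.0 CPM in E3 (-0.79, -1.44 to -0.17), and Ier2 had 19.1 CPM in E4 and 29.0 CPM in E3 (-0.60, -0.99 to -0.22). Members short of the fold included Egr1 (128 CPM in E4, 169 CPM in E3, -0.40) and Nr4a1 (40.0 CPM in E4, 56.5 CPM in E3, -0.50), while Junb was close to level at 68.4 CPM in E4 and 72.1 CPM in E3 (-0.08, -0.29 to 0.14).

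**Figure D3:**
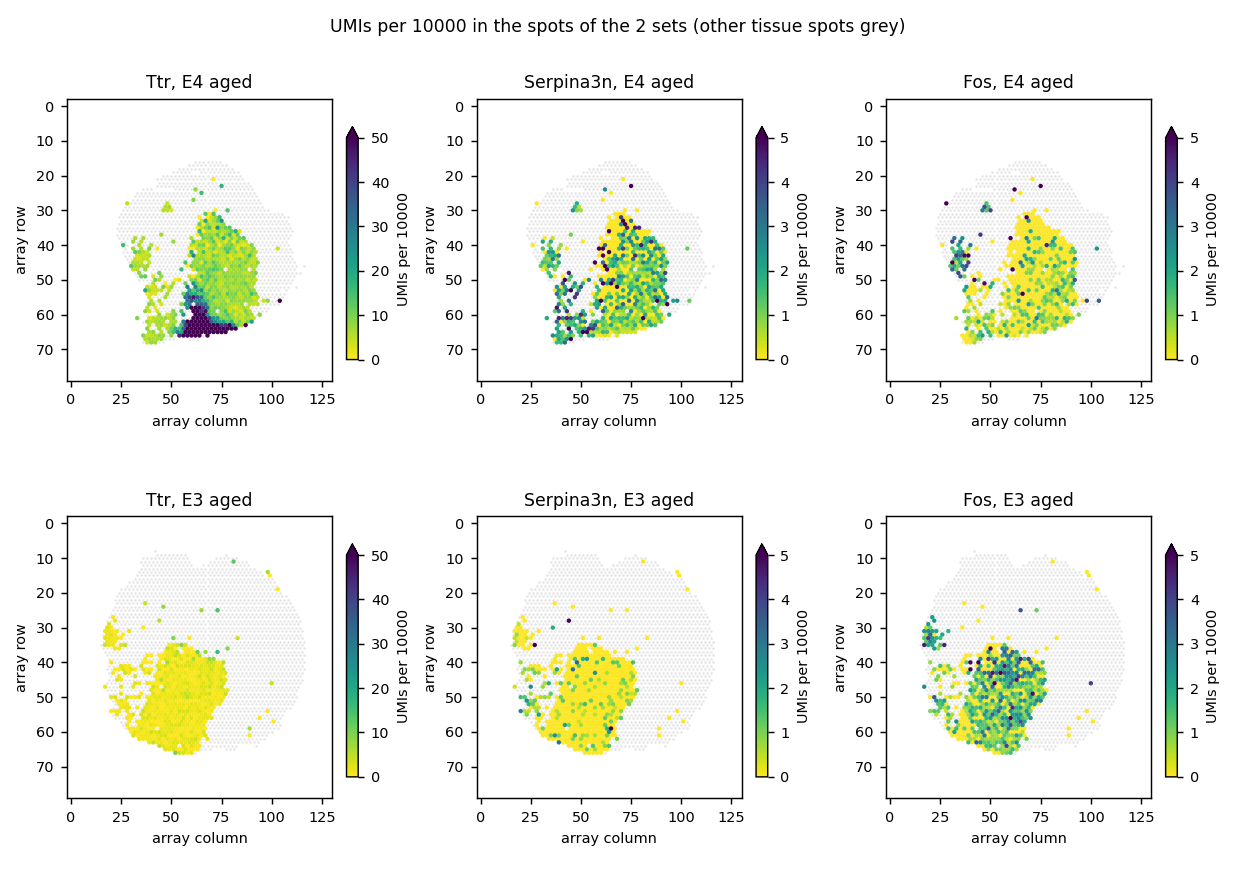
UMIs per 10000 of Ttr (left), Serpina3n (middle) and Fos (right) in the spots of the 2 sets, mapped by array column and row, with the E4 aged section above and the E3 aged section below; other tissue spots are grey and colour scales end at 50 for Ttr and 5 for the others. High Ttr forms a block at the lower edge of the E4 section only, Serpina3n is spread over the E4 thalamus (a UMI in 282 of 448 relay spots), and Fos fills more of the E3 thalamus (328 of 464).

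In Slc17a6-dominant spots 4 of 22 measured immediate early genes were lower past the fold and none was higher, with a median of -0.34. They were Npas4, Fosb, Fos and Dusp1. Over all genes in Slc17a6-dominant spots 1.13% were lower past the fold, 41.6% lay above 0 and the median was -0.04. Of the 22 members 1 lay above 0. Npas4, a transcription factor induced only by neuronal activity, had 37.5 CPM in E4 (33.0 to 42.5) and 71.2 CPM in E3 (63.9 to 79.2), a log2 ratio of -0.92 (-1.17 to -0.68). In relay spots the same gene had 36.6 CPM in E4 and 45.7 CPM in E3 (-0.32). Fos had 76.1 CPM in E4 and 124 CPM in E3 in Slc17a6-dominant spots (-0.70, -0.88 to -0.53).

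The stretches of 250 bases before the start of 4 of these genes are shown because they hold the core letters of the cAMP response element, the site bound by CREB. They were taken from RefSeq (GRCm38.p6) and cover chr12:85473640-85473889 (plus strand) for Fos, chr7:19310046-19310295 (minus) for Fosb, chr17:26508473-26508722 (minus) for Dusp1 and chr19:4989972-4990221 (minus) for Npas4. Capitals mark TGACG, the core of the element, in either orientation, and the full element TGACGTCA where it occurs.
Fos: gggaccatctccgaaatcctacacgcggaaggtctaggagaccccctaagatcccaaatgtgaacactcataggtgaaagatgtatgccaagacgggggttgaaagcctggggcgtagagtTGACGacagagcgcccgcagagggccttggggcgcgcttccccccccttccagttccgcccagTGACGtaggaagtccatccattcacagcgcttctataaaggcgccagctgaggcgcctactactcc
Fosb: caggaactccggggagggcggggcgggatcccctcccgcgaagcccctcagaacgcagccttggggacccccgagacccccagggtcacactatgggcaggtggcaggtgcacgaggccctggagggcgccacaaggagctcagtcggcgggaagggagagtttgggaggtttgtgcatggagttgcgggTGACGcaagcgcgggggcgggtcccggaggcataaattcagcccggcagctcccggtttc
Dusp1: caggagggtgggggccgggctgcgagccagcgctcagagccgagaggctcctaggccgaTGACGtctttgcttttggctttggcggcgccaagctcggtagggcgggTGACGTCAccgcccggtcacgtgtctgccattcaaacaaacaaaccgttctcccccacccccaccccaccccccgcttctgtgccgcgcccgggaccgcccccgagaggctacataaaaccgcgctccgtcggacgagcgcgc
Npas4: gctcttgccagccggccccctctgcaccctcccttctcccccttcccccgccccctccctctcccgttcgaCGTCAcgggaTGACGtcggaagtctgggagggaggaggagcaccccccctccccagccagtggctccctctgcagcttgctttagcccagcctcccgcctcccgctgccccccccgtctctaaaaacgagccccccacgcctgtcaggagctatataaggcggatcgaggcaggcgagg
Searched on both strands, with TGACG counted also inside TGACGTCA, Fos held 2 such cores, Fosb 1, Dusp1 3 and Npas4 2, and the full element occurred in Dusp1. Of 28 members of the list 21 were in the promoter table, and 17 of them held TGACG and 2 TGACGTCA. Among all 27025 genes of that table, counted alike over stretches of the same length, 19.79% held TGACG and 1.769% TGACGTCA. A match of letters describes the sequence and shows no binding.

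Among the other genes lower in E4 relay spots, Gm47283 was nearly confined to the E3 section. It had 6 UMIs in E4 and 336 in E3, or 1.26 CPM (0.463 to 2.75) and 59.5 CPM (53.3 to 66.2). The annotation places this transcript at chrY:90784738-90816464, in the stretch that chromosomes X and Y share. Kdm5d, Eif2s3y, Uty and Ddx3y, genes of the Y chromosome proper, had 0 UMIs in the relay spots of both aged sections, and Xist, the RNA of the inactive X, had 30.7 CPM in E4 and 28.1 CPM in E3. The 2 sections therefore matched in these sex markers while differing in Gm47283.

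Wdfy1, an endosomal adaptor of innate immune signalling, lies at chr1:79702262-79776143 and had 13.5 CPM in E4 (10.4 to 17.2) and 38.1 CPM in E3 (33.1 to 43.5), a log2 ratio of -1.50 (-1.93 to -1.09). Rell1, a member of the RELT receptor family, had 11.8 CPM in E4 and 32.0 CPM in E3 (-1.44, -1.90 to -1.0). Ulk2, a kinase of the autophagy start complex, had 33.9 CPM in E4 and 71.2 CPM in E3 (-1.07, -1.34 to -0.80). These 3 genes were also lower in E4 in Slc17a6-dominant spots, at log2 ratios of -1.62, -1.15 and -0.83. Vipr2, a receptor for vasoactive intestinal peptide, had 13.9 CPM in E4 and 29.2 CPM in E3 (-1.07, -1.51 to -0.65). Lrrc17, a secreted leucine-rich repeat protein, had 142 CPM in E4 and 234 CPM in E3 (-0.72, -0.85 to -0.58). Mpv17l, an organelle membrane protein, had 94.3 CPM in E4 and 156 CPM in E3 (-0.73, -0.90 to -0.56). The hypothalamic peptide gene Pmch had 117 CPM in E4 relay spots and 215 CPM in E3 relay spots (-0.88, -1.02 to -0.73).

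Several of the genes higher in E4 relay spots sat in a few spots. Penk, the enkephalin precursor, had 83.1 CPM in E4 and 32.8 CPM in E3 (1.34, 1.09 to 1.60), with 67.6% of its E4 UMIs in 5 spots. Pdyn, the dynorphin precursor, had 24.8 CPM in E4 and 9.21 CPM in E3 (1.43, 0.95 to 1.93), with 72.9% of its E4 UMIs in 5 spots. Without the 5 richest spots of each section both turned round, to -0.14 for Penk and -0.19 for Pdyn. Nts, the neurotensin precursor, had 75% of its E4 UMIs in 5 spots, with 17.7 CPM in E4 and 3.54 CPM in E3 (2.32, 1.60 to 3.10), and 0.76 without such spots. Tac2, the neurokinin B precursor found in medial habenula, had 36.8 CPM in E4 and 12.2 CPM in E3 (1.59, 1.18 to 2.02), and 1.0 without such spots. The ratio of Sst, the somatostatin gene, was 0.90 (155 CPM in E4, 83.0 CPM in E3), with 55.7% of its E4 UMIs in 5 spots. Gng8, a G protein gamma subunit, had 19.1 CPM in E4 and 6.90 CPM in E3 (1.47, 0.92 to 2.05).

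Choroid plexus transcripts led the genes higher in E4 in both sets. The choroid plexus lies within the ventricles next to the thalamus, makes cerebrospinal fluid and is by far the richest brain source of Ttr, the carrier transthyretin. In Slc17a6-dominant spots Ttr had 10856 CPM in E4 (10777 to 10936) and 138 CPM in E3 (128 to 149), a log2 ratio of 6.29 (6.18 to 6.41), and 61.7% of its E4 UMIs lay in 5 spots. In relay spots it had 2139 CPM in E4 (2097 to 2181) and 147 CPM in E3 (137 to 157), a log2 ratio of 3.86 (3.76 to 3.97). The excess was not only in those few spots: the median Slc17a6-dominant spot held 8.04 UMIs of Ttr per 10000 in E4 and 1.17 in E3, and the median relay spot 8.13 in E4 and 1.24 in E3. More than 10 per 10000 were found in 143 Slc17a6-dominant spots of the E4 section and in 1 of the E3 section, and in 142 relay spots of the E4 section and 4 of the E3 section.

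All 7 measured choroid plexus genes, of 12 on the list, were past the fold in Slc17a6-dominant spots, with a median of 4.44. The minimum of 100 UMIs counts both sections together, and members such as Kl, Sostdc1 and Folr1 reached it through E4. The count and the median of this list are therefore not independent of the direction. In Slc17a6-dominant spots the 10 genes with intervals farthest above 0 were Ttr, Ecrg4, 2900040C04Rik, Kcne2, Kl, Tmem72, Sostdc1, Folr1, F5 and Enpp2. Ecrg4, a secreted peptide precursor of this epithelium, had 526 UMIs in E4 and 8 in E3 (5.57, 4.58 to 6.79). Kl, the klotho co-receptor, had 449 UMIs in E4 and 16 in E3 (4.34, 3.63 to 5.16), and Sostdc1, a BMP antagonist, had 241 in E4 and 8 in E3 (4.44, 3.44 to 5.67). Where E3 held 1 to 3 UMIs the interval was wide: Kcne2, a potassium channel subunit, had 132 UMIs in E4 and 1 in E3 (6.58, 4.07 to 11.89), and Folr1, the folate receptor, had 124 in E4 and 3 in E3 (4.90, 3.32 to 7.20). Enpp2 (autotaxin), made by both choroid plexus and oligodendrocytes, had 1170 CPM in E4 and 142 CPM in E3 in Slc17a6-dominant spots (3.04, 2.93 to 3.16) and 376 CPM in E4 and 174 CPM in E3 in relay spots (1.11, 1.0 to 1.22). In relay spots 2 of 12 members reached 100 UMIs, Ttr and Clic6, and the chloride channel gene Clic6 had 18.7 CPM in E4 and 4.25 CPM in E3 (2.14, 1.48 to 2.86).

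The Slc17a6-dominant comparison included these spots. It had 149 of 10069 genes higher in E4 (1.48%) and 114 lower (1.13%), and with TMM scaling, which weighs down such extreme genes, 183 higher and 85 lower. The median over all genes was -0.04 without TMM. A limit of at most 10 UMIs of Ttr per 10000, set after the values were seen, left 308 spots in E4 and 332 in E3 and so took spots almost only from E4. With it 122 genes were higher and 155 lower. Ratios of Ttr and of the genes of the same tissue are lowered by the limit itself, and are not read from these spots. In the same spots Serpina3n had a log2 ratio of 2.18 and Rbm3 one of 1.25. Of the immediate early genes, Fosb stood at -0.70, Dusp1 at -0.67 and Npas4 at -0.62 there, and Fos at -0.43, short of the fold. In relay spots held to the same limit (306 in E4, 460 in E3) 89 genes were higher and 131 lower, with Serpina3n at 2.48, Rbm3 at 1.22, Fos at -1.08 and Wdfy1 at -1.42.

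In Slc17a6-dominant spots 8 of 20 interferon response genes were measured, of which 4 were higher in E4 and none lower, with a median of 0.77. Over all genes in these spots 1.48% were higher past the fold and the median was -0.04. Ifi27l2a had 25.1 CPM in E4 and 3.14 CPM in E3 (3.00, 2.24 to 3.87), and Bst2 (tetherin) had 18.2 CPM in E4 and 4.82 CPM in E3 (1.91, 1.26 to 2.63). Both had few UMIs in E3 and reached the minimum of 100 through E4. The count and the median of the list are therefore not independent of the direction. Lgals3bp had 54.5 CPM in E4 and 24.3 CPM in E3 (1.16, 0.86 to 1.48), and Ifi27 had 65.4 CPM in E4 and 32.7 CPM in E3 (1.0, 0.73 to 1.27). In the spots poor in Ttr, Ifi27l2a had 58 UMIs in E4 and 15 in E3 (2.06, 1.23 to 2.99), below the minimum of 100, while Bst2 had 28 in E4 and 23 in E3 (0.40, -0.45 to 1.26). Lgals3bp had 142 UMIs in E4 and 116 in E3 there (0.40, 0.04 to 0.77), and Ifi27 had 149 in E4 and 156 in E3 (0.05, -0.29 to 0.38). The part of choroid plexus tissue in these genes was not tested. In relay spots 5 members were measured, none was higher past the fold and the median was -0.03. Leptomeningeal genes, markers of the brain's covering membranes, had 3 of 6 higher in Slc17a6-dominant spots (median 0.69), beside 1.48% of all genes.

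Of 13 measured hypothalamic genes 4 were higher past the fold in Slc17a6-dominant spots (Nts, Trh, Hcrt and Ghrh), none was lower and the median was 0.42. Over all genes in these spots 1.48% were higher past the fold and the median was -0.04. Hcrt, the orexin precursor, had 720 CPM in E4 (700 to 741) and 462 CPM in E3 (443 to 481), a log2 ratio of 0.64 (0.57 to 0.71). Trh, the thyrotropin-releasing hormone precursor, had 54.6 CPM in E4 and 30.2 CPM in E3 (0.86, 0.57 to 1.15), and Nts had 27.5 CPM in E4 and 13.6 CPM in E3 (1.02, 0.60 to 1.45). Few spots held most of the orexin transcript in both sections, with 44.6% of the Hcrt UMIs in 5 spots in E4 and 71.6% in E3. In the Slc17a6-dominant spots outside the relay set 2 of 13 hypothalamic genes were higher and 1 lower, with a median of 0.20. The 12 thalamic relay genes had a median of -0.23 in the whole Slc17a6-dominant set. Of the Slc17a6-dominant spots 217 in E4 and 150 in E3 lay outside the relay set, and among them 163 of 8147 genes were higher in E4 (2%) and 154 lower (1.89%). Of the 101 genes higher in relay spots, 57 were measured outside the relay set and 15 were past the fold there too, among them Serpina3n, Rbm3, Cirbp, Ttr and Enpp2. Of the 112 lower in relay spots, 46 were measured, 8 were lower, among them Wdfy1, Fosb, Ulk2 and Lrrc17, and 1 was higher past the fold.

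The 10 genes lower in Slc17a6-dominant spots with intervals farthest from 0 were Gm47283, Wdfy1, Grp, Neurod6, Npas4, Rell1, Fosb, Ulk2, Rgs16 and Fos. Of those not yet described, Grp, gastrin-releasing peptide, had 6.51 CPM in E4 and 22.2 CPM in E3 (-1.77, -2.32 to -1.25), and 39.5% of its UMIs in E4 and 61.3% in E3 came from 5 spots. Neurod6, a transcription factor of cortical excitatory neurons, had 7.11 CPM in E4 and 17.0 CPM in E3 (-1.25, -1.81 to -0.72). Rgs16 had 83.7 CPM in E4 and 137 CPM in E3 there (-0.71, -0.88 to -0.55). The cortex list, which holds the rule gene Slc17a7, had 3 of 9 members lower and none higher (median -0.27), beside 1.13% of all genes lower (median -0.04). Its count and median in Slc17a6-dominant spots are therefore not independent of the choice of spots. In relay spots 2 of 9 were lower (median -0.20), beside 1.17% of all genes (median -0.01).

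The C1q chains start the classical complement cascade and are made in brain by microglia. In relay spots C1qb had 114 CPM in E4 (104 to 124) and 171 CPM in E3 (160 to 182), a log2 ratio of -0.59 (-0.74 to -0.43). C1qa had 95.7 CPM in E4 and 130 CPM in E3 (-0.45, -0.62 to -0.28), and C1qc had 84.0 CPM in E4 and 111 CPM in E3 (-0.41, -0.59 to -0.22). Of 5 complement genes measured in relay spots C1qb alone passed the fold (1.17% of all genes were lower past it), and the median was -0.41. None passed it when mitochondrially encoded and hemoglobin UMIs were left out of the totals. Of 15 homeostatic microglia genes measured in the same spots none was past the fold, 2 lay above 0 (47.1% of all genes did) and the median was -0.21. Csf1r, the receptor microglia need to survive, had 54.5 CPM in E4 and 68.0 CPM in E3 (-0.32, -0.55 to -0.09).

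The disease-associated microglia (DAM) list had 1 of 22 measured members higher in relay spots (1.05% of all genes were) and none lower, with a median of -0.07. That member, Spp1 (osteopontin), had 19.8 CPM in E4 and 9.38 CPM in E3 (1.08, 0.58 to 1.59). The 26 lysosomal genes had none past the fold and a median of -0.15, and the cathepsin gene Ctss had 142 CPM in E4 and 181 CPM in E3 (-0.35, -0.49 to -0.21). In Slc17a6-dominant spots the medians were -0.08 for complement, -0.04 for homeostatic microglia and -0.01 for lysosome, the last 2 turning just above 0 with TMM scaling. In the Slc17a6-dominant spots outside the relay set they were above 0, at 0.16 for complement with 1 of 5 members higher, 0.15 for homeostatic microglia with none of 9 past the fold, and 0.04 for lysosome with 2 of 24 higher. The difference between the sets was not tested. T cell genes were too sparse to describe, since none of 10 reached 100 UMIs in either set.

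Most genes of synapses were slightly lower in E4 in Slc17a6-dominant spots, less clearly so in relay spots, and few passed the fold. In Slc17a6-dominant spots 5 of 29 synaptic genes lay above 0, beside 41.6% of all genes, and 20 had intervals below 0 and 0 above. Their median was -0.20 beside -0.04 over all genes, and 1 was lower past the fold. In relay spots 12 of 29 lay above 0, beside 47.1% of all genes, and 16 had intervals below 0 and 2 above. There 1 was lower past the fold, Syt2, and the median was -0.13 beside -0.01 over all genes. Intervals of deeply counted genes are narrow, and the share of all genes with such intervals is not given here. Syt2, a fast calcium sensor of transmitter release, had 21.3 CPM in E4 and 32.8 CPM in E3 (-0.62, -0.99 to -0.27). Cplx1, complexin, was far more deeply counted, with 1078 CPM in E4 and 1400 CPM in E3 (-0.38, -0.43 to -0.33), and Vamp1, a synaptobrevin, had 273 CPM in E4 and 350 CPM in E3 (-0.36, -0.46 to -0.26). The calcium buffer gene Pvalb, a marker of a class of GABA neurons, was just past the fold with 221 CPM in E4 and 332 CPM in E3 (-0.59, -0.70 to -0.48). The other GABA neuron genes did not follow it, since 4 of 6 measured members lay above 0, Sst was past the fold and the median was 0.22.

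Energy and housekeeping lists moved little. In relay spots none of 53 nuclear oxidative phosphorylation genes (median -0.06), 20 glycolysis genes (-0.07), 21 TCA cycle genes (-0.02), 23 cholesterol synthesis genes (-0.09), 49 ribosomal protein genes (0.10) or 13 mitochondrially encoded genes (0.09) was past the fold. Intervals lay below 0 for 23 of the nuclear oxidative phosphorylation genes and above 0 for 3. They lay above 0 for 26 of the ribosomal protein genes and below 0 for 2. Of 29 myelin and oligodendrocyte genes 1 was higher, Enpp2, and 1 lower, Klk6, a protease of oligodendrocytes (14.1 CPM in E4, 27.4 CPM in E3, -0.96), with a median of -0.01. Hemoglobin and other blood genes had a median of 0.27 in relay spots and of -0.56 in Slc17a6-dominant spots. The plot of list members shows choroid plexus far to the right of every other list in both sets.

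**Figure D4:**
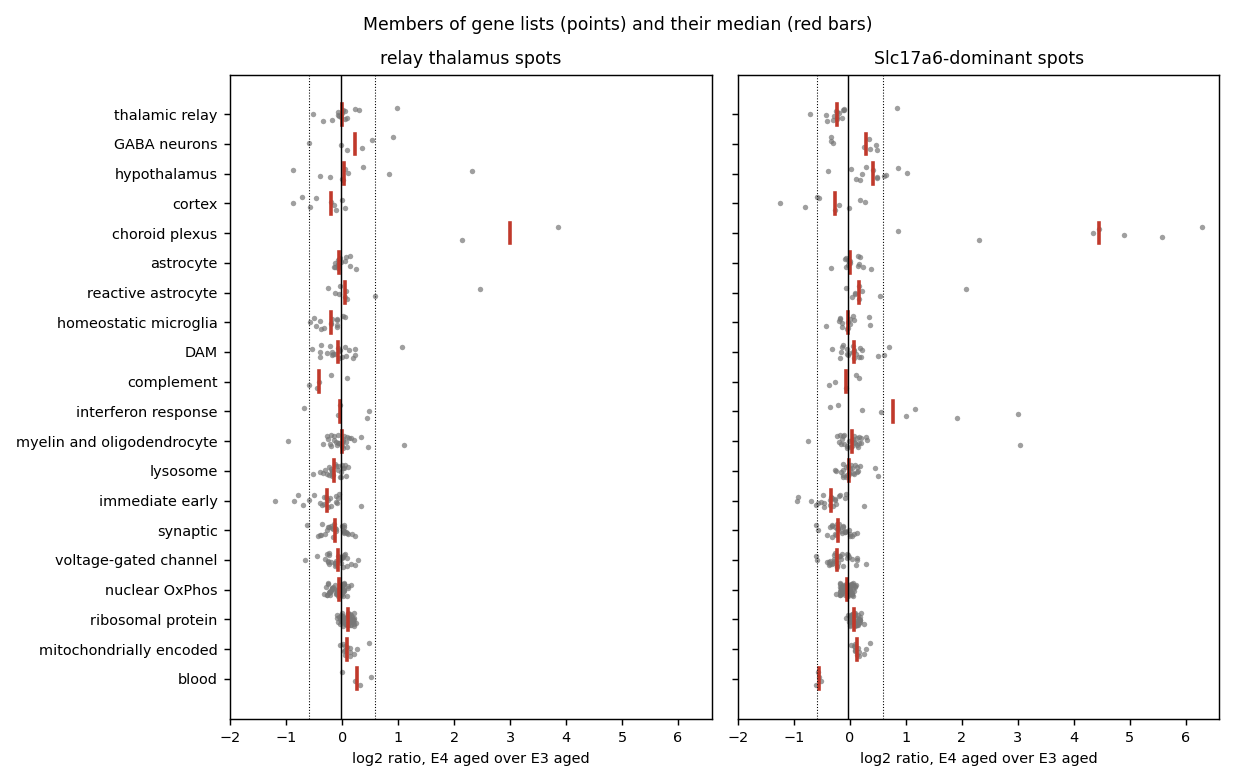
Log2 ratio of E4 aged over E3 aged for the measured members of 20 gene lists (grey points) and their median (red bars), in relay thalamus spots (left) and Slc17a6-dominant spots (right). Solid lines mark the median over all genes (-0.01 left, -0.04 right) and dotted lines 1.5-fold either way. The choroid plexus medians are 3.00 and 4.44, and the immediate early medians -0.28 and -0.34. Choroid plexus members such as Clic6 (left) and Folr1 (right) reached 100 UMIs only with the E4 section. The choroid plexus medians are therefore not independent of the direction.

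The other 2 pairs show which differences recurred between sections of the same lines. In relay spots Serpina3n had 72.2 CPM in E4 and 7.14 CPM in E3 in the young pair (log2 ratio 3.34) and 265 CPM in E4 and 212 CPM in E3 in the 5xFAD pair (0.33). In Slc17a6-dominant spots it was past the fold in all 3 pairs, at 3.61 in the young pair and 1.26 in the 5xFAD pair. Wdfy1 was lower in E4 in each pair, at -2.05 in the young pair and -0.55 in the 5xFAD pair, the second short of the fold. Rell1 was lower in all 3 pairs, at -1.28 in the young pair and -1.61 in the 5xFAD pair, as was Gm47283, with 11 UMIs in E4 and 259 in E3 in the young pair and 4 in E4 and 304 in E3 in the 5xFAD pair. Of 9045 genes measured in relay spots of every pair none was higher in all 3 and 5 were lower (Cox7a1, Gm47283, Lsm12, Rdh13 and Rell1). Of 9396 measured in Slc17a6-dominant spots 2 were higher (Serpina3n and the rule gene Tnnt1) and 3 lower (Abhd12b, Gm47283 and Rdh13).

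Fos did not recur. It had 37.2 CPM in E4 and 28.9 CPM in E3 in the young relay spots (0.36) and 34.9 CPM in E4 and 18.2 CPM in E3 in the 5xFAD ones (0.94), and the E3 aged section had the highest level of the 6. Rbm3 had 163 CPM in E4 and 121 CPM in E3 in the young pair (0.43) and 102 CPM in E4 and 109 CPM in E3 in the 5xFAD pair (-0.09), with its highest level in the E4 aged section. C1qb had 74.7 CPM in E4 and 77.3 CPM in E3 in the young pair and 398 CPM in E4 and 467 CPM in E3 in the 5xFAD pair (-0.23). Ttr had 253 CPM in E4 and 1261 CPM in E3 in the young pair, so there the E3 section was the higher one, and 1693 CPM in E4 and 354 CPM in E3 in the 5xFAD pair. Tnnt1, which helped to choose the relay spots, can be described in spots chosen by Prkcd alone: it had 155 CPM in E4 and 77.9 CPM in E3 in the aged pair, 332 CPM in E4 and 75.5 CPM in E3 in the young pair, and 107 CPM in E4 and 104 CPM in E3 in the 5xFAD pair. For the Slc17a6-dominant sets, 953 of 10784 genes were past the fold in the young pair (8.84%) and 582 of 9461 in the 5xFAD pair (6.15%). The part of age, 5xFAD, section position and mouse in these differences between pairs cannot be told apart with 1 section per group.

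**Figure D5:**
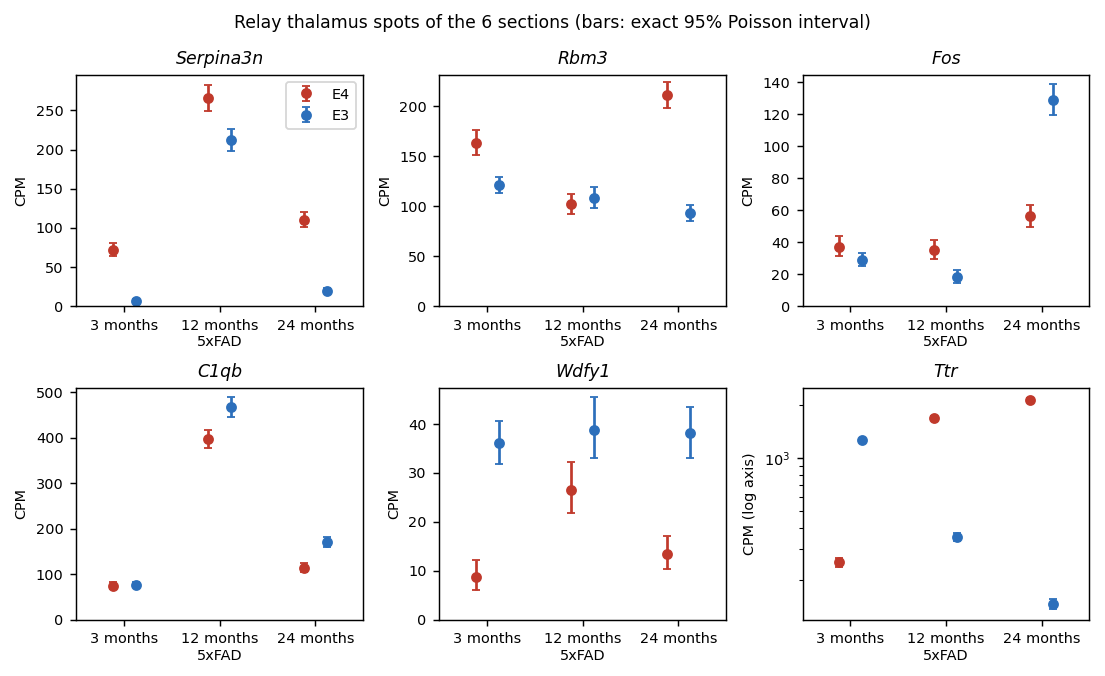
CPM of 6 genes in the relay thalamus spots of the 6 sections, in pairs of E4 (red) and E3 (blue) at 3 months, at 12 months with 5xFAD and at 24 months; bars are exact 95% Poisson intervals and the axis is logarithmic for Ttr only. Serpina3n is higher in E4 and Wdfy1 lower in E4 in each pair, Fos is highest in the E3 aged section at 129 CPM, and Ttr changes order between the young and the aged pair.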

How the data were processed

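Fresh-frozen right hemispheres were sectioned coronally and captured on Visium slides, 1 section per group and no replicate. The authors deposited UMI counts per gene and spot, made with Space Ranger 1.3.0 and STAR 2.5.1b per the methods (the file headers name Space Ranger 1.2.2 for the aged pair) on a joined mm10 and GRCh38 reference, and tissue masks. Of its genes 32288 were used, mouse genes and a few human ones, including APOE and APP; some genes are not reported here. Barcodes inside the mask were 74.1% in E4 and 84.6% in E3, and 95.9% and 97.2% after the mask was turned by 90 degrees; the mask was used as given. Spots of at least 1000 UMIs entered (1445 in E4, 2140 in E3). UMIs were summed per set with Python 3.11.15, numpy 2.4.6, scipy 1.17.1 and pandas 2.3.3; alternatives included TMM (edgeR 4.0.16, R 4.3.3). The ratio and its interval were tested on simulated data. Positions are GENCODE M21. Genes named are the 10 on each side with the interval bound farthest from 0, 2 to 4 members per list, and human APOE, mouse Apoe, human APP, Serpina3n, Gfap, C4b and Xist; Slc17a6, Slc17a7, Prkcd and Tnnt1 were left out because they chose the spots, and other genes named, such as Cirbp, Junb, Ier2 and Rdh13, and the limit on Ttr were chosen after values were seen. Spot sets and gene lists were chosen with earlier results of these data known.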

Additional observations from a re-analysis of the deposited data

Results flagged for a closer look

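Among the 10 leading genes on each side, some were past 1.5-fold one way in the aged pair and past it the other way in the young pair. In Slc17a6-dominant spots the log2 ratio of E4 over E3 for Ttr was 6.29 in the aged pair and -3.63 in the young pair. For Ecrg4 it was 5.57 in the aged pair and -1.74 in the young pair, for Kl 4.34 and -1.24, and for Enpp2 3.04 and -0.62. Grp ran the other way, at -1.77 in the aged pair and 1.04 in the young pair. In relay spots Ttr stood at 3.86 in the aged pair and -2.32 in the young pair, and Tac2 at 1.59 and -0.80. With 1 section per group the difference between pairs was not tested.

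Outside the tissue mask, Ttr made up 42356.5 CPM of the barcodes of the E4 aged section and 493 CPM of those of the E3 aged section. The same barcodes held 694 CPM in E4 young and 25579 CPM in E3 young. The section with more Ttr outside the mask was thus also the one with more Ttr in its relay spots, in both the aged and the young pair. The part of RNA that spread over the slide, or of tissue outside the mask, in the Ttr of other spots was not tested.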

How the results depend on the processing

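No paired analysis was possible because each group is 1 section, and leaving out a replicate was not possible for the same reason. Of 70 counts and shares recomputed under an alternative, 46 stayed within 1.5 times (or within counting error) and 24 moved. For named genes 662 values stayed within their interval, 70 moved and 6 turned round. The filters of 20 and 500 UMIs and the 2-fold limit leave a gene's ratio unchanged. Their values are among the 662 by construction. In Slc17a6-dominant spots (149 higher, 114 lower) the counts were 654 and 499 with a filter of 20 UMIs per gene, 18 and 10 with 500 UMIs, and 46 and 6 at 2-fold. There were 178 lower with the mean share per spot, and 70 higher with spots thinned to 5000 UMIs. TMM gave 183 higher and 85 lower. In relay spots (101 higher, 112 lower) the counts were 522 and 474 with 20 UMIs, 17 and 11 with 500 UMIs, and 11 and 7 at 2-fold. There were 215 lower with the mean share per spot, 46 higher with thinning and 66 higher in relay spots that were also Slc17a6-dominant. List members higher numbered 26 over all lists in Slc17a6-dominant spots, 55 with 20 UMIs and 15 in relay spots, and members lower 15, 26 with 20 UMIs and 8 with TMM. The E4 share of Slc17a6-dominant spots was 34.2% among spots of at least 5000 UMIs, against 31.2%. Some alternatives were added after seeing the data. Leaving out the 5 spots richest in each gene gave 232 higher in Slc17a6-dominant spots and 174 lower in relay spots, and turned Penk to -0.14 and Pdyn to -0.19 in relay spots. Penk and Pdyn also turned, to -0.30 and -0.27 at a relay limit of 10 per 10000, and to -0.19 and -0.93 in relay spots that were also Slc17a6-dominant. Over its alternatives Serpina3n in relay spots ranged between 2.40 and 2.54, Rbm3 between 1.16 and 1.28 and Fos between -1.58 and -1.08. In Slc17a6-dominant spots Fos ranged between -0.80 and -0.27, Fosb between -1.02 and -0.49 and Npas4 between -0.95 and -0.62. The cause of these shifts was not tested. With 1 mouse a side, no interval covers the difference between mice, and genes under 100 UMIs were not described.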

Other observations

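Genes near the replaced Apoe locus (chr7:19696109-19699188, GRCm38) were counted in a window of 30 Mb that was chosen after the values were seen and is cut short on one side by the end of the chromosome. Without the genes that chose the spots, 16 of 289 measured genes in the window were past the fold in relay spots (5.54%), beside 196 of 9295 elsewhere (2.11%). In Slc17a6-dominant spots the shares were 8 of 314 (2.55%) in the window and 254 of 9751 (2.60%) elsewhere. The window was not tested against others. Among its genes Rdh13, a retinol dehydrogenase, had 14.7 CPM in E4 and 27.4 CPM in E3 relay spots in the aged pair (-0.90), and ratios of -1.08 in the young pair and -0.78 in the 5xFAD pair. Cox7a1, a subunit of cytochrome c oxidase, had 14.1 CPM in E4 and 22.5 CPM in E3 (-0.67), and ratios of -0.93 in the young pair and -0.74 in the 5xFAD pair. Syt5, a synaptotagmin, was higher, with 66.9 CPM in E4 and 37.5 CPM in E3 (0.83), 0.39 in the young pair and 0.05 in the 5xFAD pair. Fosb, named above, also lies in this window.

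In Slc17a6-dominant spots with at most 10 UMIs of Ttr per 10000, a limit that took spots almost only from E4, the genes higher in E4 were led by Gh, Serpina3n, Prl, Th and Fezf1. Gh, growth hormone, had 32.5 CPM in E4 and 2.94 CPM in E3 (3.47, 2.67 to 4.37), and Prl, prolactin, had 48.6 CPM in E4 and 9.45 CPM in E3 (2.36, 1.89 to 2.86), both hormones of the pituitary. Hypothalamic peptide genes followed with smaller ratios. Hcrt had 1045 CPM in E4 and 463 CPM in E3 (1.18, 1.10 to 1.25), and Pmch, the precursor of melanin-concentrating hormone, had 2944 CPM in E4 and 1557 CPM in E3 (0.92, 0.88 to 0.96). Cartpt, an appetite-regulating peptide precursor, had 326 CPM in E4 and 168 CPM in E3 (0.96, 0.83 to 1.09), and Gal, galanin, had 139 CPM in E4 and 75.6 CPM in E3 (0.88, 0.69 to 1.07). In relay spots Pmch had the opposite direction, at -0.88. Whether the 2 sections cut the hypothalamus at the same level was not tested.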
